A study of Mus musculus with 8 samples.

Results

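The 4 Hox clusters of the mouse were described in the mouse melanocyte line melan-Ink4a-Arf-1, from chromatin immunoprecipitation sequencing (ChIP-seq) peaks of SOX10, H3K27ac and H3K27me3. The members were all peaks overlapping 1 of 4 windows of the mm9 build: Hoxa at chr6:52090000-52230000, Hoxb at chr11:96040000-96240000, Hoxc at chr15:102740000-102875000 and Hoxd at chr2:74490000-74612000. They numbered 418 of 311378 deposited peaks, in 597 kb that stand for 38 listed genes. By antibody and replicate they were 92 and 91 H3K27me3 peaks, 111 and 118 H3K27ac peaks, and 3 and 3 SOX10 peaks. The windows were set by position and not by the peaks in them.

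The study had 2 libraries per antibody, from separate experiments per the labels, and 2 input libraries that served as the background of the peak calls. All libraries came from this 1 established line, which the labels derive from embryonic skin melanocytes of Cdkn2a tm1RDp/tm1RDp mice. Every culture also received 200 nM of the phorbol ester 12-O-tetradecanoylphorbol 13-acetate and 200 pM of cholera toxin. The Cdkn2a alleles and both agents are shared by all groups, so no group lacks them and no second condition was compared. The labelled cell type was not checked against marker genes here, because no mm9 gene annotation was used.

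Hox genes encode homeodomain transcription factors that specify position along the body axis, and in each cluster their order on the chromosome follows the order of the body regions where they act. H3K27me3, the methyl mark set by Polycomb repressive complex 2, typically covers silent Hox genes as broad domains, while H3K27ac marks active promoters and enhancers. Both modify the same lysine of histone H3, so a single H3 tail carries only one of them. SOX10 is an HMG-box transcription factor needed by neural crest cells and by the melanocytes that arise from them.

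The order of the listed genes was taken from the RefSeq annotation of GRCm38.p6, a later build, whose coordinates were not carried over. With rising coordinate the order is Hoxa2, Hoxa3, Hoxa4, Hoxa5, Hoxa6, Hoxa7, Hoxa9, Hoxa10, Hoxa11 and Hoxa13 on chromosome 6. On chromosome 11 it is Hoxb13, Hoxb9, Hoxb8, Hoxb7, Hoxb6, Hoxb5, Hoxb3, Hoxb4, Hoxb2 and Hoxb1 by annotated start. On chromosome 15 it is Hoxc13, Hoxc12, Hoxc11, Hoxc10, Hoxc9, Hoxc8, Hoxc6, Hoxc5 and Hoxc4, and on chromosome 2 it is Hoxd13, Hoxd12, Hoxd11, Hoxd10, Hoxd9, Hoxd8, Hoxd3, Hoxd4 and Hoxd1. All of these orders are by lowest annotated coordinate, which need not be the order of the promoters. By that rule Hoxb3 precedes Hoxb4 and Hoxd3 precedes Hoxd4, out of numerical order. Low numbers are the anterior genes, expressed nearest the head, and high numbers the posterior ones. The low-coordinate end is thus the anterior end of Hoxa and the posterior end of the other clusters in that build. No peak below is assigned to a gene, and positions are given along the windows.

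The clusters also hold microRNA genes of the miR-10 and miR-196 families, whose products are known to target Hox messages. The marks at these microRNA genes were not examined. Their mature RefSeq sequences (GRCm38.p6) show that different clusters carry products with the same seed, bases 2 to 8, in capitals.
mmu-miR-10a-5p: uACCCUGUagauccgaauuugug
mmu-miR-10b-5p: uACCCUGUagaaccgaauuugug
mmu-miR-196a-5p: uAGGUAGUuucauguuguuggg
mmu-miR-196b-5p: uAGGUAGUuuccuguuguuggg
By lowest annotated coordinate, the gene for miR-10a comes between Hoxb3 and Hoxb4, and the gene for miR-10b between Hoxd4 and Hoxd1. These and the following places are by that coordinate only. A gene listed before a microRNA may extend past it, so they are not positions relative to promoters. The miR-196a sequence is encoded in 2 places, between Hoxb13 and Hoxb9 and between Hoxc10 and Hoxc9. The gene for miR-196b starts between Hoxa9 and Hoxa10.

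Promoters rich in CG dinucleotides are a known feature of Polycomb targets. The RefSeq promoter table held windows of 300 bases for 22 of the 38 listed genes, with 24 annotated starts. The median Hox window held 14.5 CG dinucleotides, beside 7 over all 32851 promoter windows. At least 10 CG dinucleotides stood in 17 of the 24 Hox windows, or 70.8%, and in 43.5% of all windows. Most of the 24 starts came from Hoxa and Hoxd, where 7 of 10 windows each reached that number, while 3 of 3 did in Hoxb and 0 of 1 in Hoxc. With so few starts matched in Hoxb and Hoxc, the clusters were not compared by this measure. Paralogue group 4 is shown because it alone had a sequence from 3 clusters. These are the 250 bases before the annotated start (GRCm38.p6, + strand, 5′ to 3′), with each CG in capitals.
Hoxb4: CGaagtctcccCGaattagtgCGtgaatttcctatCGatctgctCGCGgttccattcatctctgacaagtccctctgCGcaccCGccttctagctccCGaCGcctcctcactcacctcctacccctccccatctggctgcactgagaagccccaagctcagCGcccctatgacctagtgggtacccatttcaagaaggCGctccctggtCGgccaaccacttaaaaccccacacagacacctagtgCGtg
Hoxc4: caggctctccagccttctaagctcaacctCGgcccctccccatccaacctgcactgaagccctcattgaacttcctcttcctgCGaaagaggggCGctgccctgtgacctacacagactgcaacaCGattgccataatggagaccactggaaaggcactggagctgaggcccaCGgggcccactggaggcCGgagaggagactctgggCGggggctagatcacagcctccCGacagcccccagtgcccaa
Hoxd4: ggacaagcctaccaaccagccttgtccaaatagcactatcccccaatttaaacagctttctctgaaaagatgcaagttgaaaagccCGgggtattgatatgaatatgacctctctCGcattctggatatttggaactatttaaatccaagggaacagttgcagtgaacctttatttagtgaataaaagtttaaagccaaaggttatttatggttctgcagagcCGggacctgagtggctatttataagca
The stretch of Hoxb4 held 14 CG dinucleotides, that of Hoxc4 held 8 and that of Hoxd4 held 3. The motif ACAAAG, a core bound by SOX factors, stood on either strand in 6 of the 24 Hox windows (25.0%) and in 18.7% of all promoter windows. The related ACAATG stood in 0 of the 24 and in 12.6% of all. Matches of these motifs cannot overlap each other, and a match describes letters only.

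The libraries differed in depth between antibodies. After duplicate removal by the authors, 44416913 to 45583056 H3K27ac tags, 67060647 to 71987481 H3K27me3 tags and 6440395 to 8985699 SOX10 tags were kept. All values below are positions, tag counts and fold enrichments of the authors' peaks, so a base without a peak is a base where none was called at this depth. Chromosome 6, which holds Hoxa, stood apart, and its H3K27me3 peaks covered 6.26% of it in both libraries, beside 1.29% over all chromosomes. The input background recovered under H3K27ac peaks was also higher on chromosome 6, at 1.52 and 1.46 times the genome-wide level in replicates 1 and 2. On the other numbered chromosomes it ranged from 1.12 to 1.18 in replicate 1 and from 1.07 to 1.12 in replicate 2.

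H3K27me3 covered most of Hoxa, Hoxc and Hoxd and a smaller share of Hoxb. Peaks covered 92.6% of the Hoxc window in replicate 1 and 94.7% in replicate 2 (mean 93.6% ± 1.5, SD, n = 2). In Hoxd the shares were 81.2% and 84.1% (82.7% ± 2.04). They were 65.8% and 68.3% in Hoxa (67.1% ± 1.79), and 23.9% and 24.9% in Hoxb (24.4% ± 0.725). The order Hoxc, Hoxd, Hoxa, Hoxb held in both libraries, and neighbouring clusters in it differed by more than the spread between replicates. Over all chromosomes the same peaks covered 3.04% and 2.68%.

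**Figure D1:**
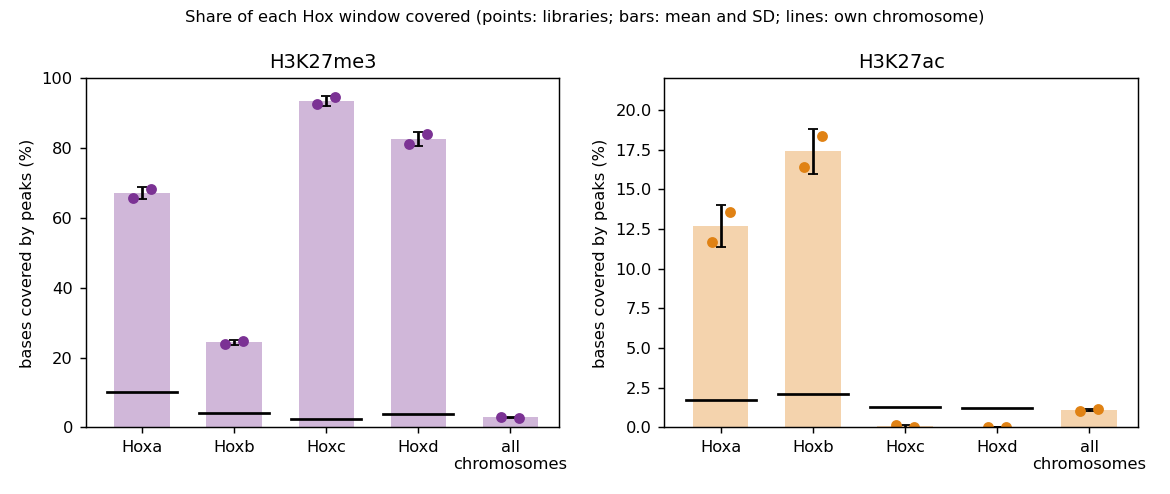
Share of the bases of each Hox window covered by H3K27me3 peaks (left) and H3K27ac peaks (right), in percent, with different vertical scales. Points are the 2 libraries, bars their mean and error bars the SD. Black lines give the mean share of the cluster's own chromosome. H3K27me3 stands far above its chromosome in all 4 clusters, while H3K27ac does so in Hoxa and Hoxb and is at or near 0 in Hoxc and Hoxd.

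The libraries placed the mark on largely the same bases. Of the bases covered in either library, 95.5% were covered in both in Hoxc, 86.3% in Hoxa, 84.2% in Hoxd and 67.5% in Hoxb, beside 29.1% over all chromosomes. Peaks that overlapped a peak of the other library numbered 17 of 17 in Hoxc in each replicate, 29 of 31 and 26 of 28 in Hoxd, 17 of 19 and 17 of 24 in Hoxa, and 19 of 25 and 15 of 22 in Hoxb. Over all H3K27me3 peaks the shares were 46.8% and 52.6%. In tiles of 1 kb at least 50% covered in both libraries, 126 of 135 were called in Hoxc, 95 of 122 in Hoxd, 87 of 140 in Hoxa and 39 of 200 in Hoxb. That is 58.1% of the 597 tiles, against a background of 1.23% of all tiles in the genome. On the clusters' own chromosomes the background was 0.967% for chromosome 15, 1.54% for chromosome 2, 6.24% for chromosome 6 and 1.95% for chromosome 11.

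A limit on false discoveries acts against these domains. At a deposited FDR of at most 1%, coverage in both libraries fell to 0.0% of Hoxa, Hoxb and Hoxc and to 0.47% of Hoxd. In these lists the FDR is larger for stronger peaks. Peaks with a MACS score (the deposited −log10 of p multiplied by 10) of 1000 or more had a median FDR of 10.9% and 10.4% in replicates 1 and 2, and peaks below 100 had 0.76% and 0.79%. Of the Hox peaks, 66 of 92 and 75 of 91 had an FDR above 1%, or 71.7% and 82.4%, beside 41.9% and 48.6% of all peaks.

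The domains were long as well as dense. The longest stretch covered without a break in both libraries ran for 37.8 kb in Hoxa (chr6:52172545-52210362), which ranked 2 by length of 43764 such stretches in the genome. It made up most of a consensus region that began 82.1 kb into the window, on the posterior side in the gene order above. A further Hoxa stretch of 17.7 kb (chr6:52211025-52228708) followed it after a break of less than 1 kb and ranked 11. The next longest lay at the other end of the window (chr6:52090000-52095924, 5.92 kb inside it).

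In Hoxc the 3 longest stretches measured 17.2 kb (chr15:102845364-102862606), 14.9 kb (chr15:102752345-102767225) and 11.9 kb (chr15:102773332-102785229). They ranked 13, 16 and 28 in the genome. In Hoxd they measured 15.7 kb (chr2:74521234-74536943), 12.5 kb (chr2:74566787-74579324) and 10.8 kb (chr2:74494188-74504965), with ranks 14, 24 and 37. In Hoxb they were 9.82 kb (chr11:96049416-96059237), 5.5 kb (chr11:96040000-96045500) and 5.01 kb (chr11:96064637-96069648). All 3 Hoxb stretches lay in its first 30 kb. The one of 5.5 kb is the inner end of a stretch of 18666 bp that begins before the window and ranked 8.

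Stretches over 10 kb in both libraries numbered 51 in the genome, and 10 of them overlapped the Hox windows, which make up 0.0233% of the span searched. They were 2 in Hoxa, 1 in Hoxb, 4 in Hoxc and 3 in Hoxd. Of the 51, 28 lay on chromosome 6, the Hoxa pair among them. The lengths depend on short breaks between called peaks. With breaks of up to 1 kb closed in each library, the longest stretch became 57.5 kb in Hoxa, 19.2 kb in Hoxb, 76.0 kb in Hoxc and 26.2 kb in Hoxd. Hoxc then held the longest of the 4.

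**Figure D2:**
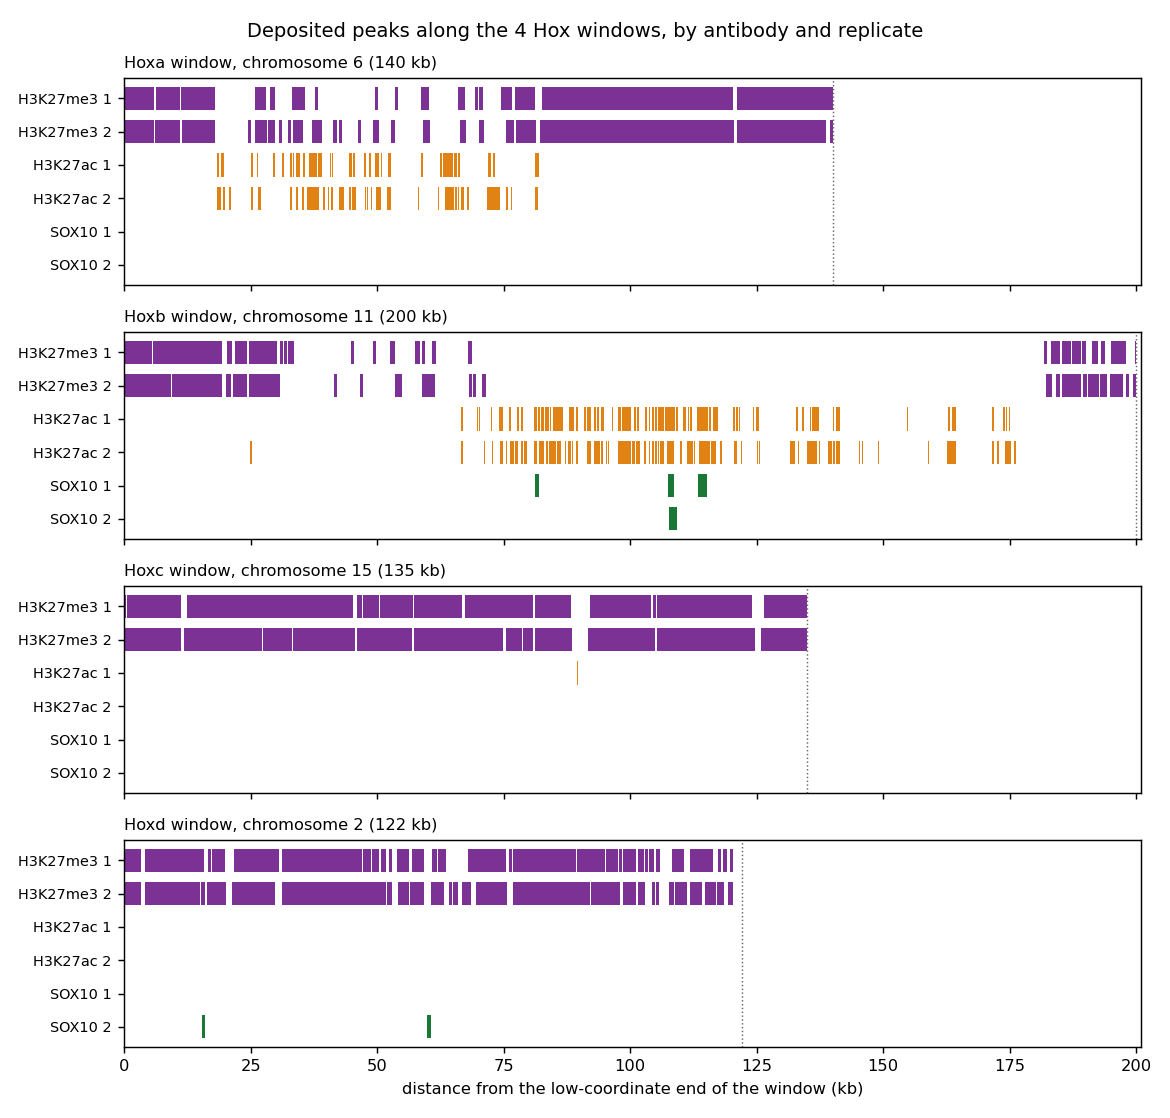
Deposited peaks of the 6 libraries along the 4 windows. The horizontal axis is the distance in kb from the low-coordinate end of each window, a dotted line marks its other end, and each filled block is 1 peak. H3K27me3 fills Hoxc and Hoxd, flanks a run of H3K27ac peaks in Hoxb, and is interspersed with H3K27ac in Hoxa between about 15 and 85 kb.

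Enrichment differed between the clusters less than coverage did. The median fold enrichment at the summit was 8.3 and 8.96 in Hoxc for replicates 1 and 2, 6.12 and 7.21 in Hoxd, 5.46 and 5.68 in Hoxa, and 5.46 and 5.36 in Hoxb. All peaks of the lists had medians of 4.81 and 5.03. Hoxc was highest and Hoxd next in both libraries, while Hoxa and Hoxb did not differ beyond the spread of their replicates. Per kb of peak, the authors counted 121 and 132 tags in Hoxa, 107 and 121 in Hoxc, 98.0 and 104 in Hoxb and 93.4 and 106 in Hoxd, against 71.9 and 75.2 over all peaks. By that measure Hoxa was highest in both libraries, in a chromosome whose input background was higher. That higher input was not subtracted from the Hoxa folds or tag counts.

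By deposited fold, the strongest single peaks were those overlapping Hoxa. The highest fold there was 13.33 in replicate 1 (chr6:52076757-52095924, 2112 tags) and 13.99 in replicate 2 (chr6:52210997-52228708, 2608 tags), above 99.8% and 99.9% of the peaks of their lists. These 2 peaks lie at opposite ends of the window, and that of replicate 1 lies mostly before it, reaching 5.92 kb inside. H3K27me3 folds were taken against 1 genome-wide background, so the higher input of chromosome 6 is not subtracted from the Hoxa folds. The rank of Hoxa among the clusters was not recomputed with that input. In Hoxb the highest fold was 11.58 in both libraries, at nearly the same place (chr11:96026145-96045500 and chr11:96026835-96049181). These Hoxb peaks also lie mostly before their window, reaching 5.5 and 9.18 kb inside. Whether their summits, or that of the replicate 1 Hoxa peak, lie inside the windows was not examined. In Hoxc the highest fold was 10.05 (chr15:102845364-102864132) and 12.24 (chr15:102821193-102828463). In Hoxd it was 8.96 (chr2:74494188-74505769) and 10.49 (chr2:74521234-74541772). Except in Hoxb, then, the libraries put their strongest peak at different places of the cluster. 15 of the 92 peaks in replicate 1 and 19 of the 91 in replicate 2 stood at the ceiling of the MACS score, 3100, so their p values do not rank them.

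**Figure D3:**
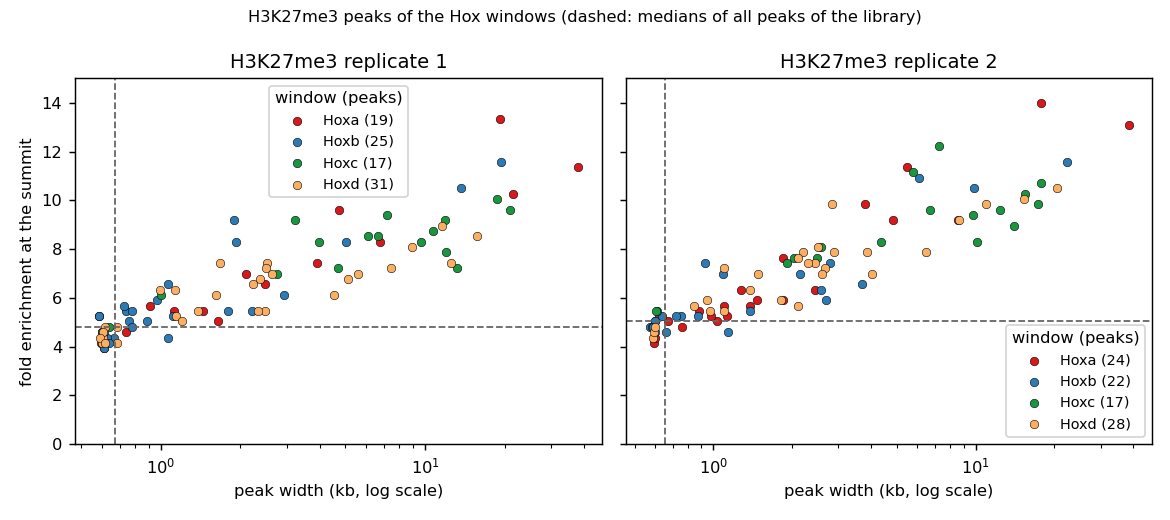
Fold enrichment at the summit against peak width in kb (log scale) for every H3K27me3 peak of the 4 windows, replicate 1 left and replicate 2 right. Colours are clusters, with their number of peaks in the legend, and dashed lines are the medians of all peaks of the library. Wide peaks have the highest folds in both libraries, and the widest belongs to Hoxa.

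H3K27ac marked Hoxa and Hoxb and was nearly absent from Hoxc and Hoxd. Its peaks covered 16.4% and 18.4% of Hoxb in replicates 1 and 2 (17.4% ± 1.43, SD, n = 2) and 11.7% and 13.6% of Hoxa (12.7% ± 1.32). Hoxd had no H3K27ac peak in either library, and Hoxc had a single one in replicate 1. Over all chromosomes the mark covered 1.04% and 1.13%. Regions with a peak of each library, called consensus regions here, numbered 39 in Hoxb and 21 in Hoxa, and 0 in Hoxc and Hoxd. With a p of at most 1e-10 required, Hoxb held 28 and Hoxa 7. Of the single peaks, 27 of 33 in replicate 1 and 26 of 39 in replicate 2 overlapped a peak of the other library in Hoxa, and 60 of 77 and 51 of 79 did in Hoxb, beside 64.0% and 59.6% of all H3K27ac peaks.

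In tiles of 1 kb, 22 of 200 were called for H3K27ac in Hoxb and 7 of 140 in Hoxa, with 0 of 135 in Hoxc and 0 of 122 in Hoxd. The 29 called tiles are 4.86% of all Hox tiles, against a background of 0.456% in the genome, 0.971% on chromosome 6 and 0.897% on chromosome 11. On chromosomes 15 and 2 the background was 0.524% and 0.471%, so a window with no called tile there is not far from what the chromosome as a whole shows. The lone Hoxc peak (chr15:102829542-102829744) was 203 bp wide, with 19 tags and a fold of 7.87. It lay in a break of the H3K27me3 domain, 1169 bp from the H3K27me3 peak on its left and 2311 bp from that on its right in replicate 1, and 1079 bp and 1882 bp in replicate 2.

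The highest H3K27ac fold in Hoxb was 13.28 and 14.12 at chr11:96154003-96155888, 114 kb into the window, with 250 and 276 tags. Next came chr11:96145868-96146685, with folds of 13.11 and 13.71. A region at chr11:96106515-96106880 reached 16.61 in replicate 1 and 7.49 in replicate 2 (mean 12.1 ± 6.45, SD, n = 2), so its place in the order rests on replicate 1. The remaining 2 of the top 5 were chr11:96144209-96144770, with 11.36 and 12.86, and chr11:96132777-96133967, with 11.36 and 12.25. None of the 5 overlapped an H3K27me3 consensus region.

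In Hoxa the highest fold was 10.66 and 9.34 at chr6:52153013-52155127, 63 kb into the window, with 257 and 218 tags. The widest Hoxa region, 3030 bp at chr6:52126107-52129136, had folds of 8.97 and 9.31. Then came chr6:52140163-52140974 with 7.97 and 7.59, chr6:52122753-52123240 with 8.28 and 6.76, and chr6:52135089-52135806 with 7.78 and 7.04. Of these 5, the second, the third and the fourth overlapped an H3K27me3 consensus region.

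Fold enrichment of H3K27ac was lower in Hoxa than in Hoxb, and the input background was higher in Hoxa. The median fold was 6.47 and 6.09 in Hoxa and 8.74 and 8.39 in Hoxb. The background recovered under these peaks was 1.52 and 1.49 times the genome-wide level in Hoxa and 1.14 and 1.09 times in Hoxb. Multiplied back, the median summit stood at 10.4 and 9.72 genome-wide backgrounds in Hoxa and 10.6 and 9.43 in Hoxb. On that scale the clusters differed by less than their replicates did. The scale is not corrected for input, so it does not show equal enrichment over input, which was lower in Hoxa. On chromosome 6 as a whole the median H3K27ac fold was 6.88 and 6.6, beside 8.09 and 7.75 on the other numbered chromosomes.

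The marks divided Hoxb into 3 segments. All 39 H3K27ac consensus regions lay between chr11:96106515 and chr11:96215212, a span of 109 kb in which H3K27ac covered 30.1% and 33.1% of bases and H3K27me3 0.715% and 1.7%. This span was drawn from the first to the last consensus region, after the values were seen, so its acetylation is fixed by the choice. On the low-coordinate side, the posterior side in the gene order, H3K27me3 covered 52.6% and 51.2% of 66.5 kb. On the other side it covered 48.4% and 56.2% of 24.8 kb. The longest break, with no H3K27me3 peak of either library, ran for 110 kb (chr11:96111397-96221770) and held 38 of the 39 H3K27ac regions.

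The other Hoxb breaks of over 5 kb were chr11:96073563-96081432, 7.87 kb with no H3K27ac region, and chr11:96101510-96107900, 6.39 kb with 1 region. In steps of 5 kb, H3K27ac reached 74.4% and 59.3% of bases at 105 to 110 kb from the window's start. It was at 0.0% in both libraries at 165 to 170 kb, where H3K27me3 was at 0.0% too. Bases under neither mark made up 68.9% of Hoxb, the largest share of the 4 clusters, counting a mark only where both of its libraries had a peak. The shares were 31.6% in Hoxa, 24.4% in Hoxd and 8.52% in Hoxc.

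Hoxa was divided differently, with both marks interspersed over part of the window. Its 21 H3K27ac consensus regions lay in the 63.6 kb of chr6:52108358-52171933, a span drawn in the same way. Inside it H3K27ac covered 25.9% and 30.0% of bases and H3K27me3 28.2% and 34.5%. Outside it H3K27me3 covered 97.1% and 96.5% and H3K27ac 0.0% in both libraries. The H3K27me3 peaks inside the span were also weaker, with a median fold of 5.14 and 5.46 against 10.3 and 9.18 outside. They were narrower too, with a median width of 825 and 1093 bp inside against 19168 and 5474 bp outside. The outside peaks numbered only 5 and 7.

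Breaks of over 5 kb in the H3K27me3 of Hoxa numbered 2 and both fell in that span. The first (chr6:52108026-52114429, 6.4 kb) held 2 H3K27ac regions and the second (chr6:52150333-52155955, 5.62 kb) held 3. In steps of 5 kb, H3K27me3 covered 59.4% and 58.1% at 15 to 20 kb and 0.0% and 11.4% at 20 to 25 kb. It returned to 64.7% and 74.5% at 25 to 30 kb and was complete in both libraries from 85 to 120 kb. Hoxc and Hoxd had no break of over 5 kb.

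**Figure D4:**
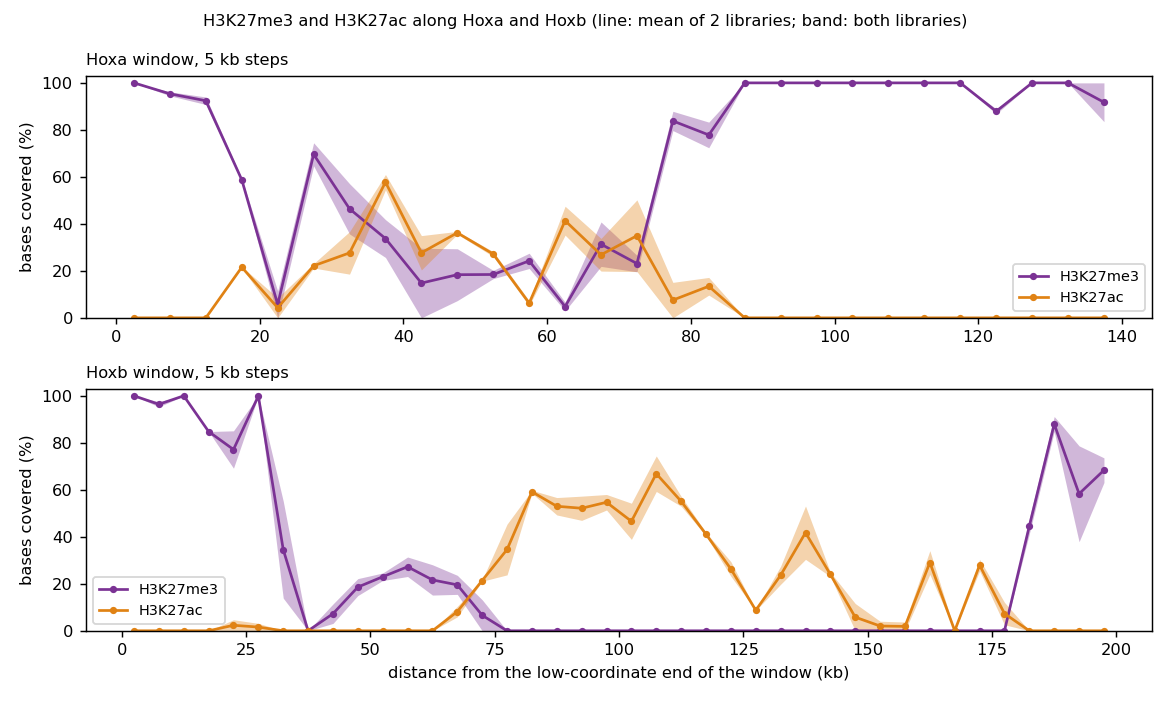
Share of bases covered by H3K27me3 and H3K27ac in steps of 5 kb along Hoxa (top) and Hoxb (bottom), against the distance in kb from the low-coordinate end. Lines join the means of the 2 libraries and bands span both libraries. In Hoxb the marks occupy largely separate segments, and in Hoxa both are present between about 15 and 85 kb.

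Consensus regions of both marks overlapped each other in Hoxa, while none did in Hoxb. Of the 21 H3K27ac consensus regions of Hoxa, 9 (42.9%) overlapped an H3K27me3 consensus region, against a background of 10.3% on chromosome 6 and 1.94% over all chromosomes. In Hoxb 0 of 39 did, against 1.78% on chromosome 11, so that count is not far from what the chromosome as a whole shows. Bases with both marks, each in both of its libraries, came to 1200 in Hoxa and 0 in Hoxb, Hoxc and Hoxd. The 1200 bp were 12.1% of the H3K27ac bases of Hoxa, beside 3.53% on chromosome 6 and 0.971% over all chromosomes. Locally the methyl mark was far more frequent than on the chromosome. H3K27me3 of both libraries covered 62.2% of the Hoxa window and 21.9% of the 63.6 kb span that held its H3K27ac regions. By bases, H3K27ac in Hoxa thus met H3K27me3 less often than that span or the window as a whole did. In Hoxa the libraries labelled replicate 1 of each mark alone gave 4028 bp, and replicate 2 alone gave 5198 bp. Most of the overlap in either pair was thus not seen in all 4 libraries. In Hoxb replicate 1 alone gave 0 bp and replicate 2 alone gave 605 bp.

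Of the Hoxa regions, the 2 that follow lay wholly under the methyl mark in both of its libraries. The region chr6:52116141-52117101, 961 bp wide with H3K27ac folds of 8.19 and 5.39, was covered by H3K27me3 over all of its 961 bp in both libraries. The same held for the 928 bp of chr6:52123891-52124818, where the H3K27ac fold was 5.04 and 5.26. Both were chosen after their values were seen. Each is the union of an H3K27ac peak of replicate 1 and 1 of replicate 2. These peaks were 384 and 746 bp wide in the first region and 832 and 447 bp in the second. Part of each region was thus called for H3K27ac in only 1 library. By contrast the H3K27me3 under the widest H3K27ac region, at chr6:52126107-52129136, spanned 597 bp in replicate 1 and 1841 bp in replicate 2. In a bulk culture, both marks at 1 place can come from different cells or from different chromosome copies, among other sources. These cannot be told apart here.

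The overlap in Hoxa was sensitive to how peaks were called. With a p of at most 1e-10 no base of Hoxa had both marks in all 4 libraries. The H3K27me3 lists used 1 genome-wide background, so the higher input of chromosome 6 was not subtracted there. With that background raised 1.34 times, the ratio seen under the H3K27ac peaks, 13 of 19 and 19 of 24 Hoxa peaks still passed the authors' cutoff, beside 52.6% and 62.3% of all chromosome 6 peaks. The Hoxa share covered in both libraries was then 60.4%, against 62.2% as deposited, and the bases with both marks fell to 520. This alternative was chosen after the data were seen.

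SOX10 peaks lay at 3 places in Hoxb, 2 in Hoxd and 0 in Hoxa and Hoxc. They covered 1.84% and 0.801% of Hoxb in replicates 1 and 2, beside 0.353% and 0.535% of chromosome 11. In Hoxd they covered 0.0% and 1.19%, beside 0.287% and 0.44% of chromosome 2. Only 1 place was called in both SOX10 libraries, so 1 of 3 peaks in each library was shared, while 65.4% and 43.6% of all SOX10 peaks were. In tiles of 1 kb, 1 of the 597 was called for SOX10, or 0.168%, against a background of 0.143% of all tiles. It lay 107.5 kb into the Hoxb window, at chr11:96147519-96148647 in replicate 1 and chr11:96147578-96149180 in replicate 2. Its fold was 6.36 with 29 tags in replicate 1 and 5.64 with 47 tags in replicate 2, above 9.53% and 9.02% of the peaks of those lists. Its summit lay within an H3K27ac peak of both libraries in both cases. The nearest H3K27me3 peak was 36834 bp away or more.

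Both other Hoxb places came from replicate 1. At chr11:96153458-96155146 the fold was 9.46 with 51 tags, and 1576 and 1524 of the 1689 bp were under H3K27ac peaks of replicates 1 and 2. That peak overlaps the Hoxb region with the highest H3K27ac fold. At chr11:96121153-96122024 the fold was 10.11 with 23 tags, and 785 and 502 of the 872 bp were under H3K27ac, but the summit lay 3 and 109 bp outside it. The input background recovered under the 3 Hoxb peaks of replicate 1 was 2.22 to 3.48 times the genome-wide level, beside a median of 1.43 for SOX10 peaks on numbered chromosomes other than 6. Its part in the calls was not tested.

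In Hoxd both SOX10 peaks came from replicate 2 and their summits were 88948 bp or more from the nearest H3K27ac peak. At chr2:74505356-74506014 the fold was 10.03 with 14 tags, and 414 and 608 of the 659 bp were under H3K27me3 in its replicates 1 and 2. The peak at chr2:74549750-74550547, with a fold of 9.74 and 29 tags, lay in a break of the H3K27me3 domain, its summit 433 and 405 bp from the nearest H3K27me3 peak. Their deposited FDR was 5.54% and 1.67%, in a list where 79.5% of all peaks had an FDR above 1%, beside 31.1% in the SOX10 list of replicate 1. With a p of at most 1e-10 no SOX10 peak was left in any of the 4 windows.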

How the data were processed

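SOX10, H3K27ac and H3K27me3 were measured by ChIP-seq, with 2 libraries each, grouped by the sample titles. Peaks were called by the authors per library with MACS 1.4.2 on mm9, per the submitters' processing notes. The name of the aligner was not given in the sources used here. The p cutoff, per the file headers, was 1e-05, 1 tag was kept per position, and ChIP and input were brought to the smaller of both totals. By the same headers, SOX10 and H3K27ac had a local background of 1000 and 10000 bp of input and H3K27me3 had none. The deposited columns hold tag counts per peak, -log10 of p multiplied by 10, the fold (a ratio of ChIP to background at the summit) and an FDR in percent. 1 damaged column title was read by position.

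Peaks were clipped to the windows for coverage, and consensus regions merged peaks of both libraries sharing at least 1 bp. The background under a peak is the Poisson mean that gives its p from its tags, as a multiple of the genome-wide level. Scripts were tested on simulated data (python 3.11.15, numpy 2.4.6, pandas 2.3.3, scipy 1.17.1, matplotlib 3.10.9). No statistical test was made. Values are given per library, beside the same over all chromosomes. Members and lists were chosen with earlier results of these data known. Named were all 38 genes, every SOX10 peak, every H3K27ac consensus region or the 5 of highest mean fold where a window held more than 10, the 3 longest H3K27me3 stretches, the highest H3K27me3 peak per library and breaks over 5 kb. States at gene starts were not analysed here, for want of an mm9 annotation. Alternatives were a stricter p, an FDR limit, each replicate alone, shorter windows, a larger overlap, closed breaks, the own chromosome as background and the raised chromosome 6 background.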

Additional observations from a re-analysis of the deposited data

How the results depend on the processing

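Of 163 recomputed values, 98 stayed within the spread between replicates, or within 1.5 times for counts, and 65 moved. Most of the 98 were 0 both as deposited and when recomputed, such as SOX10 in Hoxa and Hoxc and H3K27ac in Hoxd. A stricter filter or a shorter window cannot change a 0, so the 98 are no measure of how stable the results were. At p of at most 1e-10, H3K27me3 coverage was 59.2% in Hoxa, 17.6% in Hoxb and 72.8% in Hoxd. H3K27ac coverage was 3.3% in Hoxa and 8.7% in Hoxb, Hoxa held 7 H3K27ac regions, the both-mark bases of Hoxa were 0, and SOX10 sites were 0 in Hoxb and Hoxd. At an FDR of at most 1%, H3K27me3 coverage was 0.0% in Hoxa, Hoxb and Hoxc and 0.47% in Hoxd. The longest stretch was then 0.0 kb in those 3 and 0.573 kb in Hoxd, the both-mark bases of Hoxa were 0, H3K27ac covered 9.98% of Hoxb, and SOX10 had 0 shared sites in Hoxb and 0 peaks in Hoxd. That limit removes 31.1% and 79.5% of all SOX10 peaks of replicates 1 and 2. With windows shortened by 10 kb at each end, H3K27me3 covered 56.8% of Hoxa and 13.9% of Hoxb. With breaks of up to 1 kb closed it covered 65.3%, 22.5%, 94.7% and 83.6% of Hoxa, Hoxb, Hoxc and Hoxd, with longest stretches of 57.5, 19.2, 76.0 and 26.2 kb. With the chromosome 6 background raised, Hoxa coverage was 60.4%.

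Each library alone gave values at or above the shared ones by construction. H3K27me3 covered 65.8% to 68.3% of Hoxa, 23.9% to 24.9% of Hoxb, 92.6% to 94.7% of Hoxc and 81.2% to 84.1% of Hoxd. The longest stretch was 37.8 to 38.3 kb in Hoxa, 9.82 to 13.6 kb in Hoxb, 17.7 to 21.0 kb in Hoxc and 15.7 to 20.5 kb in Hoxd. H3K27ac covered 11.7% to 13.6% of Hoxa, 16.4% to 18.4% of Hoxb and 0.0% to 0.15% of Hoxc, with 33 to 39, 77 to 79 and 0 to 1 peaks. SOX10 peaks numbered 1 to 3 in Hoxb and 0 to 2 in Hoxd. Bases with both marks were 4028 to 5198 in Hoxa and 0 to 605 in Hoxb. Beside its own chromosome, each window's H3K27me3 background was 6.26% for Hoxa, 2.04% for Hoxb, 1.02% for Hoxc and 1.63% for Hoxd, in place of 1.29%. No paired analysis was possible because no groups of samples were compared by a test, and clusters measured in the same library are given side by side per library. The order of the clusters by H3K27me3 coverage was the same under each alternative except the FDR limit.

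Peak lists without reads give no level where no peak was called. SOX10 libraries were the shallowest, at 6440395 and 8985699 tags, so a missing SOX10 peak is a peak not detected at that depth.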

Other observations

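The longest stretch of acetylation in the clusters was in Hoxb. With breaks of up to 1 kb closed, 9 H3K27ac consensus regions of Hoxb formed a stretch of 11.3 kb (chr11:96137535-96148792), 58.4% covered in both libraries. It ranked 167 by length of 19820 such stretches in the genome and overlapped the SOX10 place called in both libraries, with the summits of both SOX10 peaks inside it. Some shorter stretches were covered more densely, such as 83.2% of 0.814 kb in Hoxa (chr6:52141981-52142794) and 74.0% of 1.49 kb in Hoxb (chr11:96180020-96181510). Others were sparser, such as 19.9% of 2.12 kb in Hoxa (chr6:52114977-52117101) and 23.0% of 0.488 kb in Hoxb (chr11:96116075-96116562). The next longest in Hoxb measured 5.71 kb (chr11:96120965-96126673, 5 regions) and ranked 837, and a single-library SOX10 peak overlapped it. The longest in Hoxa measured 6.38 kb (chr6:52122753-52129136, 4 regions) and ranked 669, with 42.3% covered in both libraries. These stretches were chosen after their values were seen.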
